A study of Homo sapiens with 12 samples.

Results

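Trefoil factors, anterior gradient proteins and prolactin-induced protein are secretory products of luminal breast epithelium. Their transcripts were followed here in T47D cells, an established line of estrogen receptor positive human breast cancer. The genes were taken by name and not by their values: TFF1, TFF2, TFF3, AGR2, AGR3 and PIP, 6 of the 55882 gene symbols counted. The count table held a row for each of the 6, and 5 passed the filter on low counts and entered the tests, among 14799 genes tested. TFF2 had 0 counts in all 12 libraries.

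RNA-seq was made from total RNA, with 3 libraries in each of 4 groups. The first group was T47D cells labelled wild type and treated for 24 h with ethanol vehicle, and the second was the same cells treated for 24 h with 2 nM estradiol. The remaining groups were T47D cells expressing HOXB13 ectopically (HOXB13 cells), given vehicle or estradiol in the same way. HOXB13 is a HOX transcription factor best known from prostate. All 4 groups had first been kept for 72 h in medium free of phenol red with 10% charcoal-stripped serum, which removes steroid hormones. The study asked how ectopic HOXB13 and estradiol, separately and together, alter gene expression in this line. The labels do not say how HOXB13 was introduced, whether the control cells carried an empty vector, whether the HOXB13 cells were 1 clone, or whether the 3 libraries of a group came from separate cultures, so p-values measure only how far these libraries differ, a spread that may be technical.

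Trefoil factors are small secreted peptides held together by disulfide bonds, released with mucins and known for protecting and repairing mucosal surfaces. TFF1, also known as pS2, is a textbook estrogen-induced gene of breast cancer cells, TFF2 is chiefly a gastric peptide, and TFF3 is a marker of luminal breast tumours. AGR2 and AGR3 are paralogous proteins of the protein disulfide isomerase family that work in the endoplasmic reticulum. AGR2 is required in the intestine for making mucin, and both are often expressed with the estrogen receptor in breast tumours. PIP, also called gross cystic disease fluid protein, is an apocrine secretory product known for its response to androgen and prolactin.

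Of the 6 genes, AGR2, AGR3 and PIP had an entry in the table of RefSeq promoters used here (assembly GRCh38.p14), and TFF1, TFF2 and TFF3 were not in it. The 250 bases upstream of the annotated start are shown for these 3 because AGR2 and AGR3 are neighbouring paralogs with different estradiol responses and PIP is the member with lower values under estradiol. Each is written 5′ to 3′ in the direction of transcription, and capitals mark TGACC, the core of the estrogen response element, on either strand.
AGR2, chr7:16805000-16805249, minus strand: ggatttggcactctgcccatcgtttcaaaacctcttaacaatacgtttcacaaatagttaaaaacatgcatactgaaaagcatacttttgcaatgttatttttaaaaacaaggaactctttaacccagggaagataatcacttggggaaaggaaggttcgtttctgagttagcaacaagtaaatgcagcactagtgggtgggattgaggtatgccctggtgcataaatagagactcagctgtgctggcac
AGR3, chr7:16881984-16882233, minus strand: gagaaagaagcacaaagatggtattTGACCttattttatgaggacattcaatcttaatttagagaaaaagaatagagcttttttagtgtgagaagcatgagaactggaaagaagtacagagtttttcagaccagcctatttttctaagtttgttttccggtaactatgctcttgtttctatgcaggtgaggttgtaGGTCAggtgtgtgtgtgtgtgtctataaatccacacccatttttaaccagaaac
PIP, chr7:143131827-143132076, plus strand: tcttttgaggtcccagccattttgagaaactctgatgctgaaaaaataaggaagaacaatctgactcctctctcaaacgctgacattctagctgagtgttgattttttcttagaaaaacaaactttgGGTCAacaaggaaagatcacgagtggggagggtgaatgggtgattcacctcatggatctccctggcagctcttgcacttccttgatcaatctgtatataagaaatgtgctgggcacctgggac
The AGR3 window held 2 such cores, at 225 to 221 bases and, in reverse complement, at 54 to 50 bases upstream of the start. The PIP window held 1, in reverse complement, at 123 to 119 bases upstream, and the AGR2 window held none. The core is common: 32.6% of 35116 RefSeq windows of the same length held at least 1. None of the 3 windows held the full palindromic estrogen response element, GGTCA and TGACC spaced by 3 bases (0.0399% of all windows), the forkhead sequence TGTTTAC (2.98%) or the sequence CCAATAAA bound by HOXB13-type homeobox factors (0.863%), each searched on both strands. These matches describe the letters of the windows only. The GC content was 40.4% for AGR2, 36.4% for AGR3 and 43.6% for PIP.

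The libraries held 17679824 to 21385996 counts, and mitochondrial transcripts took 5.63% to 8.51% of them. HOXB13 itself had 106 to 112 counts in the HOXB13 vehicle libraries and 92 to 110 in the HOXB13 estradiol libraries, against 0 to 2 in the 6 control libraries, which matched the labels. All 8 markers of luminal epithelium averaged at least 1 CPM over the 12 libraries. CPM are counts scaled to library size, with the library total adjusted by the trimmed mean of M values (TMM). The 10 markers of gastric and intestinal mucous cells summed to at most 0.802 CPM in any library. Of these, 5 (GKN1, GKN2, CDX2, PGC and ATOH1) had 0 counts. The 7 basal and myoepithelial markers summed to 26.0 to 32.2 CPM in the control libraries and to 34.3 to 50.6 in the HOXB13 libraries. Only 2 of the 7 averaged at least 1 CPM over the 12 libraries. Of the 4 tested, 0 passed for HOXB13 in vehicle or in estradiol. With the library number as a block, an alternative fit, 1 was called higher in vehicle, where 0.405% of all tested genes were called. The 6 prostate luminal markers summed to 30.5 to 36.9 CPM in vehicle and to 19.0 to 23.4 in estradiol, with KLK2 at 0. Of these 6, 2 averaged at least 1 CPM over the 12 libraries. The part of these shifts in the results below was not tested. In bulk RNA, fewer cells expressing a gene and less of its RNA per cell cannot be told apart.

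Per kilobase of exon, the 6 genes ranked PIP, AGR2, TFF3, AGR3, TFF1 and TFF2 in each of the 4 groups by mean level, an order that compares genes of different length. In control vehicle cells PIP stood at 683 ± 158 CPM per kb (SD, n = 3) and AGR2 at 341 ± 67.0 (SD, n = 3), and their libraries did not overlap. In HOXB13 estradiol cells they did overlap, at 365 to 609 CPM per kb for PIP and 346 to 417 for AGR2, so that the order of these neighbours did not exceed their spread. TFF3 followed at 75.5 ± 21.8 CPM per kb in control vehicle cells (SD, n = 3) and AGR3 at 16.8 ± 4.23 (SD, n = 3). TFF1 was far lower, at 0.456 ± 0.402 CPM per kb in control vehicle cells (SD, n = 3). By group mean CPM, not corrected for length, AGR2 stood above 99% to 99.3% of the tested genes, PIP above 96.5% to 97.8%, TFF3 above 77.6% to 87.4%, AGR3 above 42.3% to 65.1% and TFF1 above 0.926% to 23.8%. The 6 genes together took 0.0956% to 0.155% of all counts in a library.

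**Figure D1:**
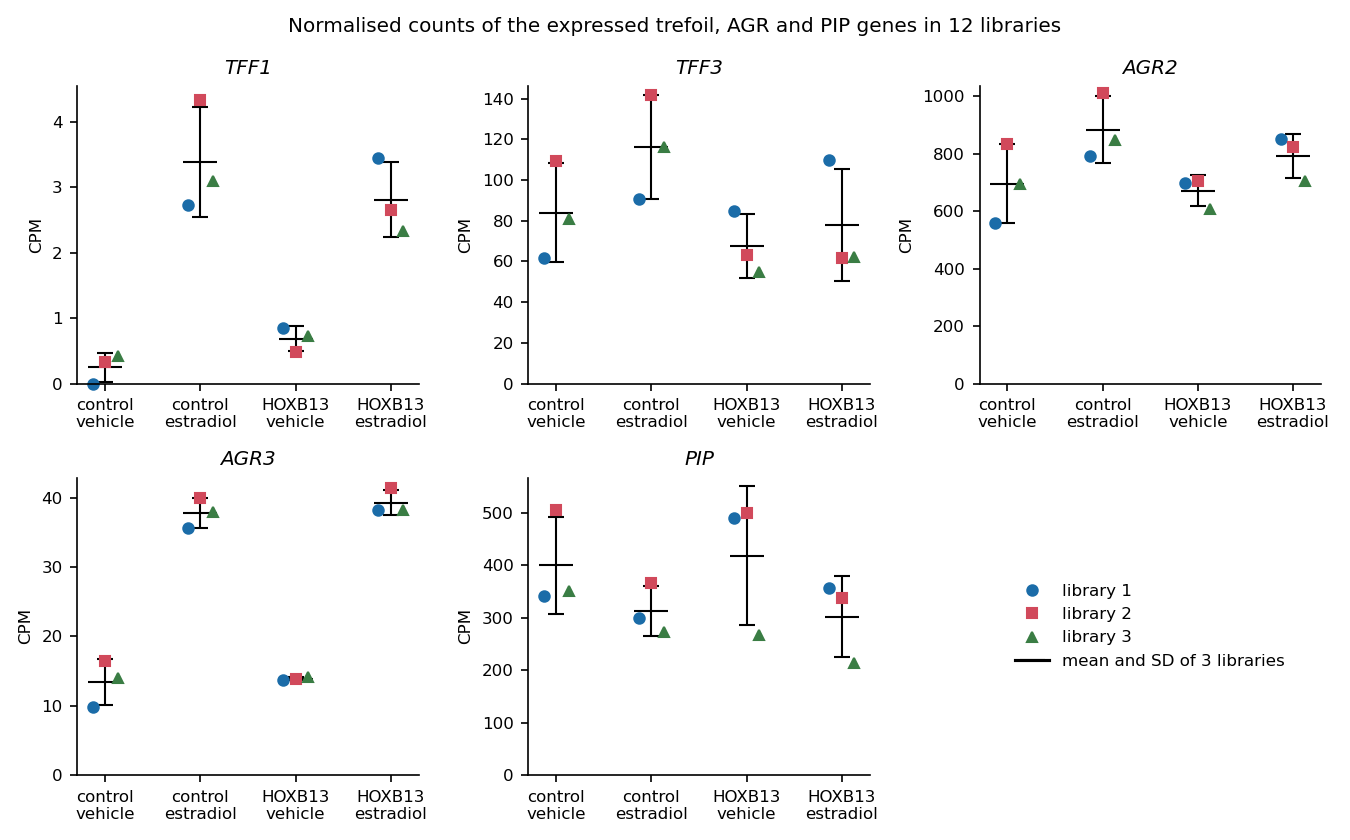
Level of TFF1, TFF3, AGR2, AGR3 and PIP in each of the 12 libraries, with CPM on the y axis (a separate scale per gene), the 4 groups on the x axis, 1 point per library and bars for the group mean and SD. The estradiol points of AGR3 (35.6 to 41.3 CPM) lie above all its vehicle points (9.78 to 16.4 CPM), whereas the AGR2, TFF3 and PIP points of the 2 treatments overlap.

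Estradiol raised TFF1 and AGR3 in control T47D cells. AGR2 and TFF3 had higher means and PIP a lower mean, none of which passed the test. Thus 2 of the 5 tested genes were called higher at a Benjamini-Hochberg adjusted p of 0.05 and 0 lower, in a comparison in which 15.4% of all tested genes were called, 8.65% as higher and 6.72% as lower. The median log2 fold change was 0.47 over the 5 genes and -0.01 over all genes tested.

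The trefoil genes differed from each other in level and in response. TFF1 had 0, 7 and 8 counts in control vehicle libraries 1, 2 and 3, or 0, 0.335 and 0.418 CPM, a mean of 0.251 ± 0.221 (SD, n = 3). Under estradiol it had 56, 84 and 64 counts, or 2.74, 4.33 and 3.10 CPM, a mean of 3.39 ± 0.838 (SD, n = 3). Every estradiol library was above every vehicle library, as for 16.1% of all tested genes. The fitted log2 fold change of TFF1 was 3.72 ± 0.53 (SE; edgeR quasi-likelihood test, adjusted p = 0.000286), and the summed counts, 204 against 15, gave a ratio of 13.5 with an exact 95% interval of 7.99 to 24.5 for counting error only. Under estradiol TFF1 was still a low transcript, above 23.8% of tested genes in control estradiol cells.

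TFF2 was not detected in either treatment. With 3 counts over all 12 libraries as the limit that a count of 0 allows, its level was at most 0.0128 CPM, which covers counting error only.

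TFF3 had 61.5, 109.6 and 81.1 CPM in control vehicle libraries 1, 2 and 3, with a mean of 84.0 ± 24.2 (SD, n = 3). Under estradiol it had 90.6, 141.7 and 116.1 CPM, a mean of 116 ± 25.5 (SD, n = 3). It was higher in 3 of 3 same-numbered pairs, as were 30.2% of all tested genes, but the groups overlapped. Its log2 fold change of 0.47 ± 0.26 (SE) did not pass the test (adjusted p = 0.257), and the 95% interval ran from -0.08 to 1.01.

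The 2 anterior gradient genes, which lie next to each other on chromosome 7, responded unequally. AGR3 had 9.78, 16.4 and 14.0 CPM in control vehicle libraries 1, 2 and 3 (mean 13.4 ± 3.37, SD, n = 3) and 35.6, 39.9 and 38.0 CPM under estradiol (mean 37.8 ± 2.15, SD, n = 3). No library of one treatment overlapped the other, and AGR3 rose by 1.50 ± 0.15 on the log2 scale (SE; adjusted p = 2.12e-05). AGR2, the more abundant paralog, had 560.1, 833 and 694 CPM in vehicle (mean 696 ± 137, SD, n = 3) and 792.5, 1013 and 847 CPM in estradiol (mean 884 ± 115, SD, n = 3). AGR2 was higher in 3 of 3 same-numbered pairs, yet vehicle library 2 exceeded estradiol library 1 and the groups overlapped. Its log2 fold change was 0.35 ± 0.14 (SE; adjusted p = 0.129, 95% interval 0.04 to 0.65). With the library number as a block, which pairs the libraries, AGR2 passed (adjusted p = 0.00587), in a fit that called 17.5% of all tested genes as higher. Without control vehicle library 2 it also passed, at a log2 fold change of 0.50 and an adjusted p of 0.0244. That fit called 1500 of 15131 genes as higher. AGR2 passed too without the 4 libraries numbered 2 (log2 fold change 0.39, adjusted p = 0.0156), in a fit that called 1917 of 14883 genes as higher. In 12 of 16 alternatives AGR2 was not called. Its log2 fold change was 0.21 without control vehicle library 1 (adjusted p = 0.414) and 0.24 without control estradiol library 2 (adjusted p = 0.404).

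PIP had 342, 506.5 and 350.5 CPM in control vehicle libraries 1, 2 and 3 (mean 400 ± 92.6, SD, n = 3). Under estradiol it had 299.5, 366 and 274 CPM (mean 313 ± 47.6, SD, n = 3), lower in 3 of 3 same-numbered pairs, as were 30.1% of all tested genes. The groups overlapped, since estradiol library 2 lay above 2 of the vehicle libraries. The log2 fold change of PIP was -0.35 ± 0.24 (SE; adjusted p = 0.375, and 0.106 with the replicate block). Without control vehicle library 2 it was -0.15.

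The same 2 genes rose in cells with ectopic HOXB13. TFF1 and AGR3 were called higher and no gene of the 6 lower, in a comparison that called 13.6% of all tested genes (7.22% higher, 6.38% lower). The median log2 fold change over the 5 genes was 0.24, against -0.01 over all genes.

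TFF1 had 17, 9 and 14 counts in HOXB13 vehicle libraries 1, 2 and 3, or 0.844, 0.475 and 0.732 CPM (mean 0.684 ± 0.189, SD, n = 3). Under estradiol it had 65, 51 and 43 counts, or 3.45, 2.66 and 2.33 CPM (mean 2.81 ± 0.578, SD, n = 3). The groups did not overlap, as for 15.3% of all tested genes in that direction. The log2 fold change was 2.03 ± 0.46 (SE; adjusted p = 0.00962) and the ratio of summed counts was 4.10 (exact 95% interval 2.88 to 5.95). Leaving out the 4 libraries numbered 3, an alternative chosen after the data were seen, ended the call with a log2 fold change of 2.20 ± 0.65 (SE; adjusted p = 0.110).

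TFF3 had 84.9, 63.4 and 54.6 CPM in HOXB13 vehicle libraries 1, 2 and 3 (mean 67.6 ± 15.6, SD, n = 3) and 109.8, 61.7 and 62.3 CPM under estradiol (mean 77.9 ± 27.6, SD, n = 3). Libraries numbered 1 were the highest in both treatments and the groups overlapped. The log2 fold change was 0.20 ± 0.26 (SE; adjusted p = 0.678), and without HOXB13 estradiol library 1 it was -0.13.

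AGR3 had 13.7, 13.9 and 14.1 CPM in HOXB13 vehicle libraries 1, 2 and 3 (mean 13.9 ± 0.212, SD, n = 3) and 38.2, 41.3 and 38.2 CPM under estradiol (mean 39.3 ± 1.78, SD, n = 3). These groups lay far apart, and AGR3 rose by 1.50 ± 0.15 on the log2 scale (SE; adjusted p = 3.27e-05). AGR2 had 698, 706 and 609 CPM in vehicle (mean 671 ± 54.1, SD, n = 3) and 851, 822 and 706 CPM in estradiol (mean 793 ± 76.8, SD, n = 3). AGR2 was higher in 3 of 3 same-numbered pairs, as were 28% of all tested genes. Its log2 fold change was 0.24 ± 0.14 (SE; adjusted p = 0.323, and 0.0555 with the replicate block).

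PIP had 489.6, 499.9 and 266 CPM in HOXB13 vehicle libraries 1, 2 and 3 (mean 419 ± 132, SD, n = 3) and 356, 338 and 213 CPM under estradiol (mean 302 ± 77.6, SD, n = 3). Library 3 was the lowest in both treatments, and PIP was lower under estradiol in 3 of 3 same-numbered pairs, as were 28.8% of all tested genes. The log2 fold change was -0.47 ± 0.24 (SE; adjusted p = 0.243). With the replicate block PIP was called lower (adjusted p = 0.0430), in a fit that called 15% of all tested genes as lower. Without HOXB13 vehicle library 3 its log2 fold change was -0.71 (adjusted p = 0.0481), in a fit that called 715 of 15138 genes as lower. Without HOXB13 estradiol library 3 the log2 fold change of PIP was -0.27 (adjusted p = 0.580).

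**Figure D2:**
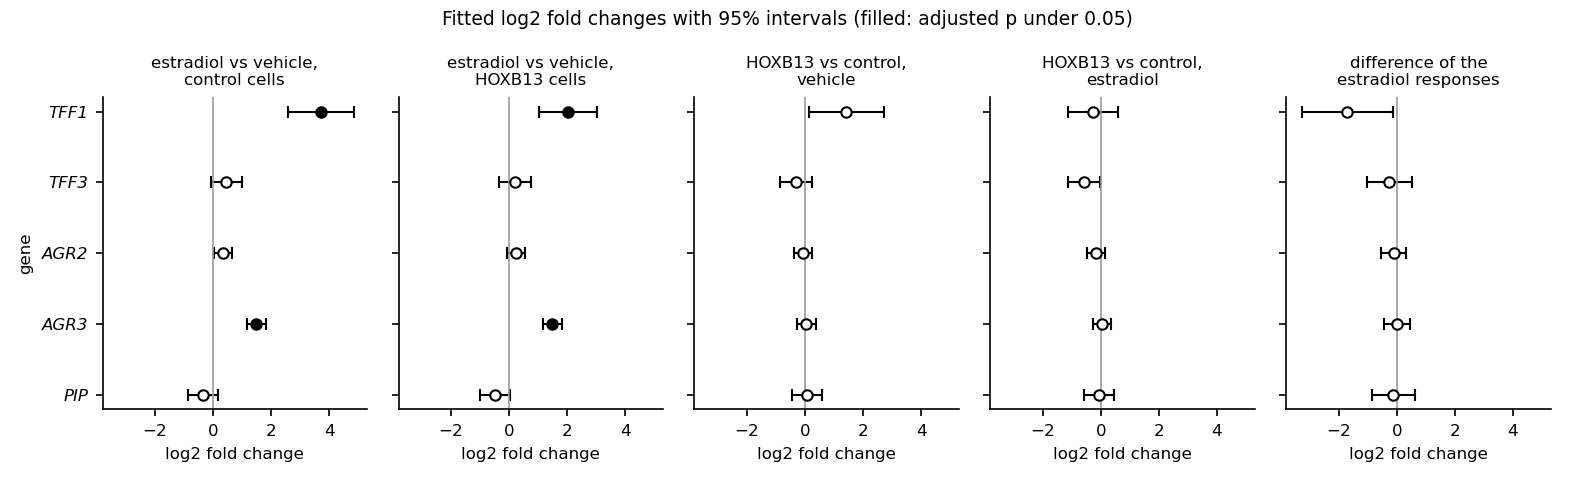
Log2 fold changes of the 5 tested genes in the 2 estradiol comparisons, the 2 HOXB13 comparisons and the difference of the estradiol responses, with 95% intervals from the fit. The estradiol intervals of TFF1 (2.59 to 4.86 in control cells, 1.03 to 3.02 in HOXB13 cells) and AGR3 (1.17 to 1.83 in both) lie above 0.

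HOXB13 was not accompanied by a called change in any of the 6 genes. In vehicle, 0 of the 5 tested genes passed the test, in a comparison that called 3 of all 14799 genes (0.0203%). TFF1 was 0.684 CPM on average with HOXB13 against 0.251 without, and the libraries did not overlap, as for 3.59% of all tested genes in that direction. Its log2 fold change of 1.43 ± 0.60 (SE) had an unadjusted p of 0.0317 and an adjusted p of 1.0, never below 0.419 over 15 alternatives. Control vehicle library 1, with 0 counts of TFF1, weighed on this value: without it the log2 fold change was 0.86 ± 0.45 (SE). The summed counts of TFF1, 40 against 15, gave a ratio of 2.75 (exact 95% interval 1.49 to 5.36, counting error only). The other genes differed less between the genotypes in vehicle, at log2 fold changes of -0.31 for TFF3, -0.05 for AGR2, 0.05 for AGR3 and 0.07 for PIP. Their 95% intervals were -0.86 to 0.24, -0.36 to 0.26, -0.28 to 0.38 and -0.45 to 0.58.

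Under estradiol, 0 of the 5 tested genes passed, in a comparison that called 2 of all 14799 genes (0.0135%). TFF3 averaged 77.9 CPM with HOXB13 and 116 CPM without, and HOXB13 library 1 (109.8 CPM) lay above control library 1 (90.6 CPM). Its log2 fold change of -0.58 ± 0.26 (SE) had an unadjusted p of 0.0412 and an adjusted p of 0.999. The difference moved with library number: it was -1.06 without the 4 libraries numbered 1 and -0.26 without the 4 libraries numbered 2. With no filter on low counts TFF3 was called lower (adjusted p = 0.0212), in a fit that called 14 of 25598 genes as lower. The remaining log2 fold changes were -0.27 for TFF1, -0.16 for AGR2, 0.05 for AGR3 and -0.05 for PIP. The ratio of TFF1 summed counts was 0.835 (exact 95% interval 0.674 to 1.03).

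The difference between the estradiol responses of the genotypes was tested as an interaction. No gene of the 14799 passed (percent called 0), also by DESeq2 and limma-voom. With no filter on low counts 3 genes were called higher and 1 lower, and without the 4 libraries numbered 2 there was 1 lower, none of them among the 6 members. In the reported fit 219 genes had an unadjusted p under 0.05, with 740 as the number that chance alone would give. For TFF1 the response in HOXB13 cells minus that in control cells was -1.70 ± 0.72 on the log2 scale (SE), with an unadjusted p of 0.0343, an adjusted p of 1.0 and a 95% interval of -3.25 to -0.14. Without control vehicle library 1 it was -1.13. The lower fold of TFF1 in HOXB13 cells thus stood beside a higher vehicle level (40 summed counts against 15) and an estradiol level with overlapping libraries. For AGR3 the difference was 0.00 ± 0.21 (SE; 95% interval -0.45 to 0.46). The differences were -0.26 for TFF3, -0.11 for AGR2 and -0.12 for PIP, with 95% intervals of -1.04 to 0.51, -0.54 to 0.33 and -0.85 to 0.62.

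Ratios taken within a library do not depend on its depth. AGR3 had 17.5, 19.7 and 20.2 counts per 1000 AGR2 counts in control vehicle libraries 1, 2 and 3, and 44.9, 39.4 and 44.9 in control estradiol. In HOXB13 cells the ratio was 19.6, 19.7 and 23.1 in vehicle and 44.9, 50.3 and 54.2 in estradiol. All 6 estradiol libraries were above all 6 vehicle libraries, so the balance of the paralogs shifted towards AGR3 in each genotype. PIP had 611, 608 and 505 counts per 1000 AGR2 counts in control vehicle libraries 1, 2 and 3 and 378, 361 and 323 in control estradiol. In HOXB13 cells the values were 701, 708 and 437 in vehicle and 418, 411 and 302 in estradiol. The treatments did not overlap within either genotype, unlike the PIP and AGR2 levels taken alone. TFF3 per 1000 AGR2 counts overlapped between treatments, at 110 to 131.5 in control vehicle, 114 to 139.8 in control estradiol, 89.7 to 122 in HOXB13 vehicle and 75.0 to 129 in HOXB13 estradiol. These ratios carry no p-value, and a ratio shows unequal change, not which of the 2 genes moved. How many ratios of other genes separate the treatments in this way was not counted.

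**Figure D3:**
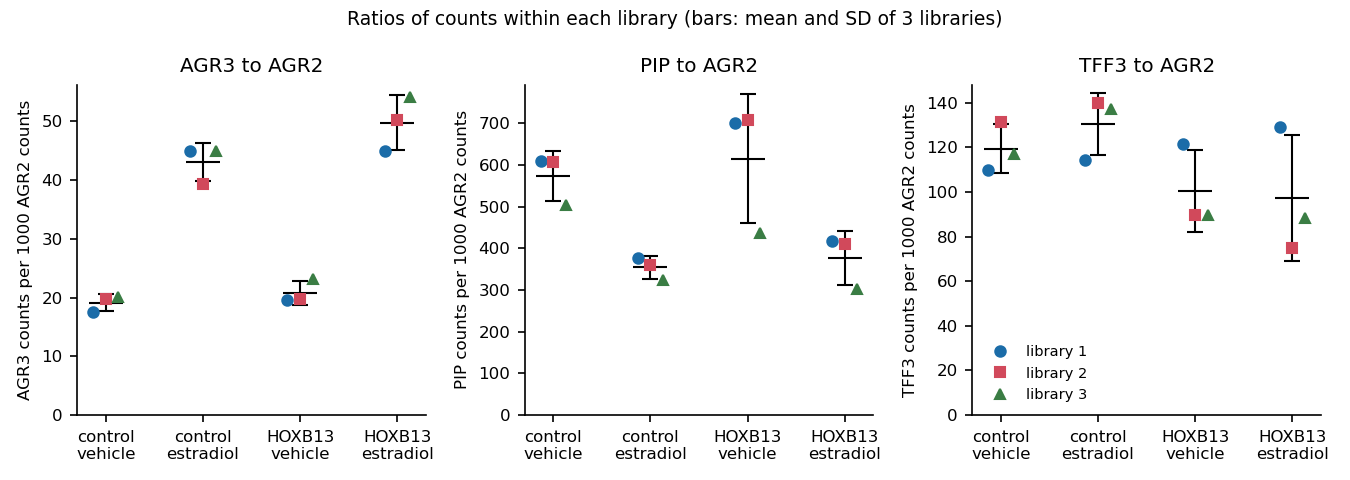
Ratios between genes within each library, as counts of the first gene per 1000 counts of the second on the y axis and the 4 groups on the x axis, with 1 point per library, its number by marker, and bars for the group mean and SD. AGR3 per 1000 AGR2 counts lies at 17.5 to 23.1 in vehicle and 39.4 to 54.2 in estradiol.

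Between libraries of a group, some of the genes varied together more than others. In control cells, library 2 was the highest of its group for TFF3, AGR2 and AGR3 in both treatments, and for PIP. In HOXB13 cells, library 1 was the highest for TFF3 and library 3 the lowest for PIP. The coefficient of variation within a group was 1.53% to 25.1% for AGR3, 8.06% to 19.6% for AGR2, 15.2% to 31.6% for PIP, 22.0% to 35.5% for TFF3 and 20.5% to 88.1% for TFF1. Across the 12 libraries, which share the 4 group means, the Pearson correlation of log2 CPM was 0.93 between TFF1 and AGR3, 0.81 between TFF3 and AGR2, 0.76 between AGR2 and AGR3 and -0.46 between PIP and AGR3. With group means removed, it ranged from 0.27 between PIP and TFF1 to 0.84 between TFF1 and AGR3. It was 0.35 between PIP and AGR3, 0.51 between TFF3 and AGR3, 0.81 between TFF3 and AGR2 and 0.79 between PIP and AGR2, against 0.13 for PIP and AGR2 before.

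Genes whose log2 CPM was most like that of each member over the 12 libraries were taken from 12015 tested genes averaging at least 1 on that scale. For TFF1 they were BFSP2 (Pearson r = 0.99), SLC29A1 (0.99) and EME1 (0.97), and for AGR3 they were ACAT2, WDR62 and MCM2 (0.99 each). With group means removed these values were 0.93, 0.91 and 0.82 for TFF1 and 0.87, 0.87 and 0.78 for AGR3. The 3 highest for AGR3 were then CNOT2, SDHB and CCNB1. MCM2, a subunit of the replicative helicase, rose with estradiol by 1.41 ± 0.10 on the log2 scale in control cells and by 1.24 ± 0.10 in HOXB13 cells (SE; adjusted p = 1.69e-06 and 7.06e-06). For TFF3 they were SERPINA1, which encodes alpha-1 antitrypsin (0.96), TNS4 (0.90) and CERCAM (0.89). SERPINA1 tracked TFF3 also with group means removed (0.96), and did not pass the estradiol test in either genotype (log2 fold changes 0.27 and 0.10, adjusted p = 0.239 and 0.727). For AGR2 they were RP11-51O6.1 (0.98) and the ribosomal protein genes RPL23A and RPL35 (0.96 each). The 3 highest for AGR2 were TMEM98, EIF1 and EIF4H by Spearman correlation, and RPL28, TIMP1 and UCP2 with group means removed. For PIP they were YIPF3, GANAB and PDIA3 (0.94, 0.94 and 0.93). These include 2 genes of glycoprotein folding in the endoplasmic reticulum: GANAB encodes a glucosidase subunit and PDIA3 a disulfide isomerase. Neither was among the 3 highest for PIP by other measures. Those were YIPF3, RAB4A and TMEM179B by Spearman correlation, and DPP3, GRN and EFHD1 with group means removed, where GANAB and PDIA3 had 0.94 and 0.96. These correlations describe 12 libraries and carry no p-value.

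Other secretory products of luminal cells showed both directions. Of 39 such genes, 19 were tested, and 7 rose and 1 fell with estradiol in control cells, against 6 and 1 in HOXB13 cells. Over all tested genes, 8.65% rose and 6.72% fell in control cells, and 7.22% and 6.38% in HOXB13 cells. The replicate block called 7 and 1 in control cells and 6 and 2 in HOXB13 cells. In either direction, it called 34% and 30.5% of all tested genes in the 2 genotypes. SPINK4, a secreted protease inhibitor found in goblet cells, had 1, 3 and 2 counts in control vehicle libraries 1, 2 and 3 and 62, 88 and 73 in control estradiol, and rose by 5.12 ± 0.51 on the log2 scale (SE; adjusted p = 1.67e-05). It rose by 5.19 ± 0.51 in HOXB13 cells (SE; adjusted p = 2.50e-05). The stanniocalcin hormones STC2 and STC1 rose by 2.38 and 2.02 in control cells and by 1.94 and 1.54 in HOXB13 cells, and OLFM1, a secreted olfactomedin, by 2.20 and 1.59. CEACAM6, a cell surface adhesion protein of mucosal epithelia, fell in both (log2 fold changes -1.59 and -1.70). AZGP1 and APOD, gross cystic disease fluid proteins like PIP and named here after their values were seen, did not pass (log2 fold changes -0.10 and -0.07 in control cells, -0.11 and -0.21 in HOXB13 cells). AZGP1 lay between 65.1 and 102.6 CPM in all 12 libraries. The median over the 19 genes was 0.15 in control cells and 0.04 in HOXB13 cells.

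Mucins and the enzymes and partners that accompany trefoil peptides were tested for 15 of 36 genes, of which 1 rose and 3 fell in each genotype, where 15.4% and 13.6% of all tested genes were called. The replicate block, which called 34% and 30.5% of all tested genes in the 2 genotypes, called 1 higher and 6 lower in control cells and 1 and 7 in HOXB13 cells. GALNT5, a transferase that starts mucin-type O-glycans, rose by 3.64 ± 0.62 in control cells and by 1.82 ± 0.50 in HOXB13 cells on the log2 scale (SE; adjusted p = 0.00116 and 0.0253). Its call in HOXB13 cells ended without HOXB13 vehicle library 1, HOXB13 estradiol library 1 or HOXB13 estradiol library 3. GALNT10, of the same enzyme family, fell in both (log2 fold changes -0.59 and -0.55), as did CLCA2, a calcium-activated chloride channel regulator (-0.88 and -1.16). The third to fall was CD164, a sialomucin, in control cells and ZG16B, a secreted lectin, in HOXB13 cells (log2 fold changes -0.43 and -0.69). The control count of 3 lower genes was 1 without control vehicle library 1, control estradiol library 2 or control estradiol library 3, and the HOXB13 count was 5 without HOXB13 estradiol library 2. Over all genes, those control fits called 626 of 15109, 647 of 15134 and 587 of 15140 lower. The HOXB13 fit called 743 of 15128 lower. The reported fit called 995 of 14799 lower in control cells and 944 in HOXB13 cells. MUC1, the main cell surface mucin of luminal cells, was called lower only with the replicate block (log2 fold changes -0.37 and -0.57, adjusted p = 0.339 and 0.136 without it, 0.00691 and 0.000134 with it) and is named after its values were seen. The gastric mucin MUC5AC, a partner of TFF1 in the stomach, had 3 counts in 1 control estradiol library and 0 in the other 11.

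In the protein disulfide isomerase family, to which AGR2 and AGR3 belong, few genes passed without the block. Of 22 tested genes beside AGR2 and AGR3, 1 rose and 1 fell in control cells and 1 rose and 2 fell in HOXB13 cells, and the replicate block called 3 higher and 7 lower in control cells and 3 and 5 in HOXB13 cells. All tested genes were called at 15.4% and 13.6% without the block and at 34% and 30.5% with it. ERO1L, the oxidase that recharges these isomerases, rose by 0.41 in control cells, and QSOX1, a sulfhydryl oxidase, fell in both (log2 fold changes -0.40 and -0.49). In HOXB13 cells QSOX2 rose by 0.62 and ERO1LB fell by 0.64 on the log2 scale. The call of ERO1L was lost without control vehicle library 1 or 3 or any 1 control estradiol library, and without control vehicle library 2 the count of lower genes was 4. The fit without control vehicle library 2 called 1258 of 15131 genes lower, against 995 of 14799 as reported. In HOXB13 cells, QSOX2 lost its call without library 1 or 2 of either treatment, and the count of lower genes was 1 without HOXB13 vehicle library 1 or any 1 of the HOXB13 estradiol libraries. The fits with a count of 1 called 527 to 743 of all tested genes lower, against 944 as reported. By size, the AGR3 log2 fold change of 1.50 exceeded that of each of the 22 in both genotypes. TXNDC12, the third anterior gradient family member (AGR1) and named after its values were seen, did not pass (log2 fold changes 0.00 and 0.16).

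Reported receptors and binding partners of trefoil and AGR proteins were tested for 10 genes, of which 0 rose and 3 fell in control cells and 0 rose and 4 fell in HOXB13 cells, against 1 and 5 in each with the replicate block. The share of all tested genes that fell was 6.72% and 6.38% without the block, and 34% and 30.5% were called in either direction with it. CXCR4, a chemokine receptor reported to respond to TFF2, fell in both (log2 fold changes -1.84 ± 0.30 and -2.23 ± 0.30, SE; adjusted p = 0.000733 and 0.000294). FN1, fibronectin, fell in both (-0.91 and -0.81), and so did LYPD3, a surface protein reported to bind AGR2 (-0.83 and -0.88). DAG1, dystroglycan, fell by 0.35 on the log2 scale in HOXB13 cells.

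Transcription factors reported to act on these genes were tested for 24 of 29, with 4 higher and 6 lower in control cells and 2 higher and 8 lower in HOXB13 cells. The replicate block called 6 and 10 in control cells and 5 and 13 in HOXB13 cells. Of all tested genes, 8.65% rose and 6.72% fell in control cells and 7.22% and 6.38% in HOXB13 cells, and the block called 34% and 30.5% in either direction. GATA4, an endodermal GATA factor, had 1, 3 and 0 counts in control vehicle libraries 1, 2 and 3 and 48, 83 and 64 in control estradiol, and rose by 5.48 ± 0.56 (SE; adjusted p = 2.16e-05), and by 4.24 ± 0.48 in HOXB13 cells (SE; adjusted p = 7.09e-05). RUNX1 rose by 1.34 and 1.13, and the progesterone receptor PGR and TFAP2C rose by 0.91 and 0.82 in control cells. The epithelial factors ELF3 (-0.92 and -1.09), SPDEF (-0.64 and -0.77) and TFAP2A (-0.62 and -0.77) fell in both. The control counts were 2 higher without control estradiol library 1 and 3 lower without control estradiol library 3, and the HOXB13 count of lower genes was 5 without HOXB13 vehicle library 1, HOXB13 estradiol library 2 or HOXB13 estradiol library 3. Those control fits called 1062 of 15132 genes higher and 587 of 15140 lower, against 1280 and 995 of 14799 as reported. The HOXB13 fits called 539 of 15136, 743 of 15128 and 564 of 15151 genes lower, against 944 as reported. ESR1, the estrogen receptor, did not pass in either genotype (log2 fold changes -0.13 and -0.22) and is named after its values were seen.

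**Figure D4:**
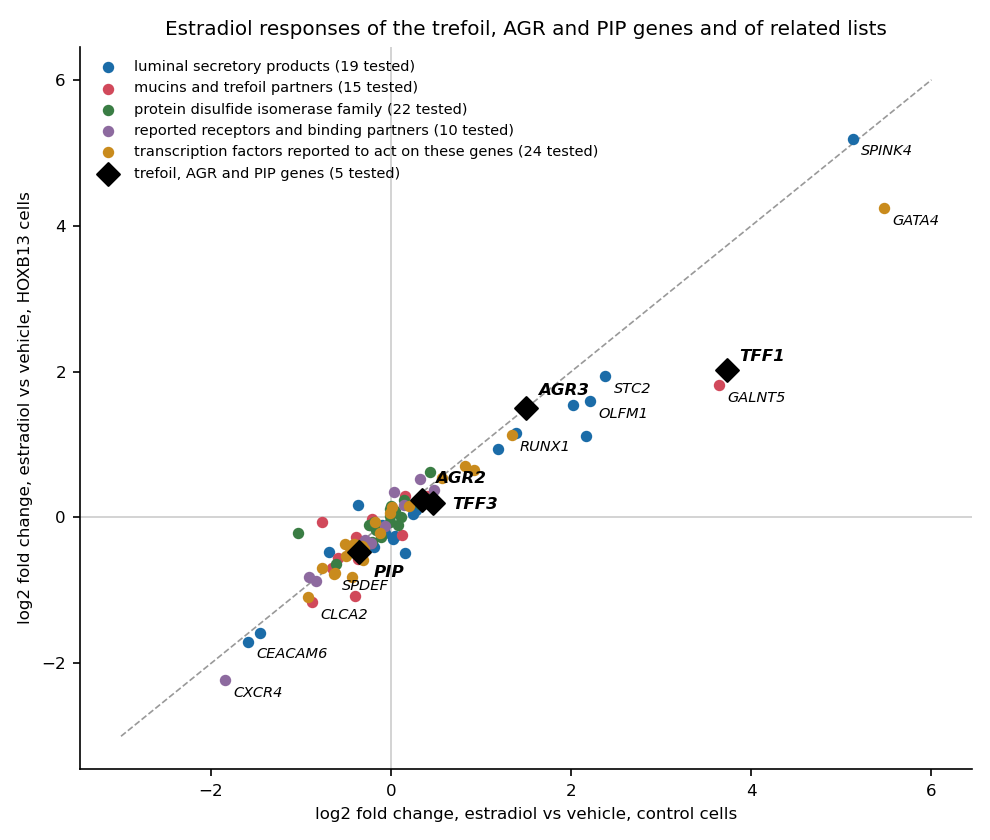
Log2 fold change with estradiol in control cells on the x axis against that in HOXB13 cells on the y axis for the tested trefoil, AGR and PIP genes and the related lists, 1 point per gene. TFF1 lies at 3.72 and 2.03 and AGR3 at 1.50 and 1.50, with SPINK4 and GATA4 further out.

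With HOXB13 itself, no tested gene of these lists passed in vehicle or estradiol. CLCA2 passed only with the replicate block, which called 0.405% and 0.392% of all tested genes, as higher with HOXB13 (adjusted p = 0.0285 and 0.000856 in the 2 comparisons, 0.285 and 0.0521 without the block).

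The genes beside the members responded in their own ways. The 3 trefoil genes lie in a row on chromosome 21, with TMPRSS3 next to TFF1 and ABCG1 next to TFF3. TMPRSS3, a membrane serine protease, rose by 1.33 and 1.50 on the log2 scale in control and HOXB13 cells. ABCG1, a sterol exporter, fell in both (-0.89 and -1.05), as did RIPK4, 8 genes from TFF1 (-0.40 and -0.47). SLC37A1 fell by 0.37 in HOXB13 cells. Around AGR2 and AGR3, the flanking TSPAN13 and AHR did not pass (log2 fold changes 0.12 and -0.10 in control cells), whereas ANKMY2 (-0.66 and -0.49) and HDAC9, a histone deacetylase (-1.82 and -1.54), fell in both. None of the 5 tested neighbours of PIP passed in either genotype without the replicate block, and with it 1 was called higher and 2 lower in each. With the block, 1 of the 9 tested neighbours of the trefoil genes was called higher and 5 lower in each genotype, against 1 and 2 in control cells and 1 and 3 in HOXB13 cells without it. Of the 7 around AGR2 and AGR3, 0 were higher and 2 lower in each genotype, and the block called 3 lower in control cells and 2 in HOXB13 cells. Of all tested genes, 15.4% were called in control cells and 13.6% in HOXB13 cells without the block, and 34% and 30.5% with it.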

How the data were processed

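RNA-seq counts were analysed for 12 T47D libraries in 4 groups of 3. Per the submitters' processing notes, FastQC, STAR, Picard and HTSeq were used with the builds GRCh37 and hg19. Neither tool versions nor whether counting used strand could be read from these sources, so reads of genes that overlap on opposite strands could not be told apart. The deposited table holds whole-number counts per gene symbol, 1 column per library, not normalized. It lists 55882 symbols, of which 30284 were 0 throughout.

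Groups came from the sample titles. Counts were fitted in edgeR 4.0.16 (R 4.3.3) with TMM scaling (0.974 to 1.04), filterByExpr (minimum count 10, minimum total 15), group means over all 12 libraries and the robust quasi-likelihood F test, with Benjamini-Hochberg adjustment over 14799 genes and a threshold of 0.05. SE is the log2 fold change divided by the square root of F. Log2 CPM used a prior count of 2. Alternatives included DESeq2 1.42.0, limma-voom 3.58.1, RLE factors, other filters, the replicate block and leaving out libraries. On simulated counts for control cells (14557 genes), 88% of 2-fold and 100% of 4-fold changes were recovered. Recovery below 2-fold, where the values of AGR2, TFF3 and PIP lay, was not tested. The changed genes were drawn only from genes with a higher mean count than TFF1, so recovery at counts as low as those of TFF1 was not tested.

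The reported fit did not pair libraries. Pairing by the library numbers in the titles was used only in the replicate block, an alternative fit, and in counts of same-numbered pairs. The calls of AGR2 in control cells and of PIP in HOXB13 cells depend on this choice. Deviations from group means correlated over 0.1 for every same-numbered pair. The values were 0.132 to 0.457 and 0.184 to 0.354 for estradiol in control and HOXB13 cells, and 0.125 to 0.409 and 0.123 to 0.311 for HOXB13 in vehicle and estradiol. For the interaction the lowest was 0.0926, below that limit, and the block was run there only as an alternative.

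The 6 genes and the lists were chosen with earlier results of these data known. Named genes are the members, up to 4 called genes per direction, list and comparison with the largest change and average log2 CPM of at least 0, the 3 genes most like each member, and tested neighbours. A gene the rule names is not reported here. Exon lengths are from GENCODE annotation of GRCh38, and promoters and gene order from RefSeq GRCh38.p14, not the build of the counts.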

Additional observations from a re-analysis of the deposited data

How the results depend on the processing

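AGR3 was called higher with estradiol in all 16 alternatives in each genotype (log2 fold change 1.31 to 1.67 in control cells, highest adjusted p 0.00897, and 1.46 to 1.54 in HOXB13 cells, highest adjusted p 0.0120). TFF1 was called in all 16 in control cells (3.15 to 4.40, highest adjusted p 0.0168) and in 15 of 16 in HOXB13 cells (1.83 to 2.21). The number of members called in control cells was 2 as reported and 5 with no filter on low counts, where TFF3 (adjusted p = 0.00756), AGR2 (0.0362) and PIP (0.0433) joined, and in HOXB13 cells PIP joined too (adjusted p = 0.00319), making 3. The fit with no filter called 1426 of 25598 genes higher and 1182 lower in control cells, and 1235 and 1066 in HOXB13 cells. The number of members called was 1 in place of 2 in HOXB13 cells without the 4 libraries numbered 3. That fit called 343 of 14914 genes higher and 159 lower there. The number was 1 (TFF3) in place of 0 for HOXB13 in estradiol with no filter, where 16 genes were called higher and 14 lower. The cause was not tested. With the replicate block the calls that changed were AGR2 in control cells (adjusted p = 0.00587) and PIP in HOXB13 cells (0.0430), and no other member call changed. The numbers called in the other lists with the block are printed beside them. The marker lists are an exception, where only that of the basal markers with HOXB13 in vehicle is given. Directions that turned were all of values that passed no test, as log2 fold changes. Leaving out 1 library at a time, the range was -0.13 to 0.41 for TFF3 with estradiol in HOXB13 cells, -0.19 to 0.10 for AGR2, -0.13 to 0.22 for AGR3 and -0.085 to 0.31 for PIP with HOXB13 in vehicle, -0.18 to 0.15 for PIP with HOXB13 in estradiol, and -0.25 to 0.028 for AGR2, -0.16 to 0.19 for AGR3 and -0.36 to 0.080 for PIP in the interaction. With HOXB13 in vehicle, AGR2 was 0.063 without the libraries numbered 2 and 0.0073 without those numbered 3, and AGR3 was -0.12 and PIP -0.16 without those numbered 1. PIP with HOXB13 in estradiol was 0.062 without those numbered 3. The AGR3 interaction was -0.025 with limma-voom, -0.0076 with the replicate block and -0.16 without those numbered 2. Leaving out the libraries numbered 1 or 3 was chosen after seeing the data. Fits of only the compared groups are the same as the full fit for the interaction and were not run there. Depth limits TFF2, with 0 counts throughout, and TFF1 in control vehicle, with 0 to 8 counts per library.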
